A study of Mus musculus with 8 samples.

Results

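The collagen genes of mouse liver were followed in 8 RNA sequencing libraries, in 4 groups of 2. Members were all rows of the deposited count table whose symbol consists of Col, a collagen type number, the letter a and a chain number. This rule, which uses no measured value, found 44 of the 22155 genes in the table. All mice were C57BL/6 by label and 8 to 10 weeks old, and all drank ethanol in the Lieber-DeCarli liquid diet, 1% for 2 days followed by 2% for 10 days. Each received a single intraperitoneal injection of the hepatotoxin carbon tetrachloride (CCl4), 1 µl per g, and the liver was taken 2 days later. The Yap control group held Yap1 floxed homozygotes given a GFP virus (AAV8-GFP), and the Yap1 knockout group held mice given AAV8-iCre, a virus for deleting Yap1 from hepatocytes. Ctgf floxed homozygotes, for which the labels name no virus, made the Ctgf control group, and the remaining group is labelled Ctgf conditional knockout. The sources used here give neither the promoter of iCre in the virus nor the Cre driver of the Ctgf knockout.

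Collagens, most of them secreted, are proteins in which chains with repeated glycine wind into a triple helix. Fibrillar collagens (types I, III and V among those described here) form the fibrils of scar and stroma, collagen IV forms the sheet of basement membranes, and collagen VI forms beaded filaments around cells. FACIT collagens sit on fibril surfaces, and the multiplexins (types XV and XVIII) belong to basement membranes. In liver, hepatic stellate cells that turn into myofibroblasts are the main known source of fibrillar collagen after CCl4, and collagen XVIII is also made by hepatocytes. CTGF is a matrix-associated protein linked to fibrosis, and YAP is a transcriptional coactivator known to induce it.

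Several collagen genes lie next to each other. Those of collagen IV stand in 3 head-to-head pairs, in which the genes of a pair are read in opposite directions from neighbouring starts. Col4a1 (GRCm38 chromosome 8, 11198423 to 11312826, minus strand) and Col4a2 (11312805 to 11449287, plus strand) overlap by 22 bases at their starts. Col4a4 and Col4a3 on chromosome 1 are 71 bases apart, and Col4a6 and Col4a5 on chromosome X are 1308 bases apart. Col3a1 (chromosome 1, 45311538 to 45349706, plus strand) and Col5a2 (45374321 to 45503282, minus strand) face each other across 24614 bases.

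RefSeq's promoter table for GRCm38.p6 held 35 of the 44 genes. The 250 bases before the start site are shown for Col3a1, Col5a1 and Col6a3, which differed together between the control groups as described further on, to show how unlike in base composition the starts of such genes are. Capitals mark matches on either strand to the motifs searched, which were the TATA box as TATAAA, the promoter box CCAAT, the GC box as GGGCGG, the AP-1 site as TGANTCA and the TEAD core as CATTCC. TEAD factors are the DNA-binding partners of YAP. No motifs overlapped in these windows.
Col3a1, chr1:45311288-45311537, plus strand: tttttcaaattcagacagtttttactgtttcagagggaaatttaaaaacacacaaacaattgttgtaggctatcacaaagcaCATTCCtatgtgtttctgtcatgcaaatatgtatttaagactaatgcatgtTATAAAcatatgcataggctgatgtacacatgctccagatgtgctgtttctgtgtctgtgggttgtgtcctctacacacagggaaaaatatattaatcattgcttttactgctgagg
Col5a1, chr2:27886175-27886424, plus strand: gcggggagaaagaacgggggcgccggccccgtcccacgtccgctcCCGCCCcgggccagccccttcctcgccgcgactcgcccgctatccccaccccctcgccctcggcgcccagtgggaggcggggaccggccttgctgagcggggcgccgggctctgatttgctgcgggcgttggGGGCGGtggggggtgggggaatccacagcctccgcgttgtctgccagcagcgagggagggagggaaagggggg
Col6a3, chr1:90843972-90844221, minus strand: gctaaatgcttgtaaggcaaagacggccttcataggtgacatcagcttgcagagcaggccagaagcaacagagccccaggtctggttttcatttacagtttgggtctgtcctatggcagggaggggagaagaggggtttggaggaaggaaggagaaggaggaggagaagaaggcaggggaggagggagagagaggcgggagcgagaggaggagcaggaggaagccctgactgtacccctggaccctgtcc

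The Col3a1 window was 35.2% G and C, with 5% of 32851 promoters lower, the Col5a1 window 76.4% and the Col6a3 window 57.2%. Col3a1 held a TEAD core 168 bases and a TATA box 117 bases before its start. Col5a1 held GC boxes 205 and 73 bases before its start, and Col6a3 held none of the motifs. A TEAD core stood in 4 of the 35 genes (Col3a1, Col6a2, Col18a1 and Col20a1) and in 12.6% of all promoters. A GC box stood in 21 of the 35 and in 32.7% of all promoters, a CCAAT box in 13 and 33.8%, a TATA box in 5 and 12.4%, and an AP-1 site in 1 (Col6a1) and 6.75%. The counts are of genes, and the 35 genes had 38 promoters, while the percentages are of promoters, so the units differ. These matches of letters describe the windows and do not show that a factor binds there.

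Levels are given in CPM, counts per 1000000 counts of the TMM-scaled library (a scaling that sets the bulk of genes equal between libraries), as mean ± SD with n = 2. The libraries held 26904021 to 33488609 counts, and a count of 3 equals 0.083 to 0.123 CPM. The 10 hepatocyte markers summed to 40546 to 81566 CPM in each library. Yap1 measured 31.0 and 32.5 CPM in its knockouts, against 107 and 76.1 CPM in the Yap controls. The Yap1 knockouts held more Ctgf transcript, 406 CPM in replicate 1 and 324 CPM in replicate 2. Yap control replicate 1 held 96.8 CPM of it and replicate 2 held 50.1 CPM. That direction is opposite to the known induction of Ctgf by YAP. The difference did not pass edgeR's quasi-likelihood test (adjusted p = 0.25), and its cause was not tested. Ctgf stood at 8.02 CPM in replicate 1 and at 49.2 CPM in replicate 2 of the livers labelled Ctgf knockout, against 28.8 and 32.1 CPM in the Ctgf controls, so replicate 2 goes against its label. Yap control replicate 2 held transcripts of the exocrine pancreas, 1.46% of its counts, against 0.000372% to 0.000844% in the others. No label states that the replicates are separate animals, so p-values measure the spread between these libraries, which may be technical.

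Of the 44 collagen genes, 19 reached a mean of 5 CPM in at least 1 group and 7 reached 100 CPM (Col1a1, Col1a2, Col3a1, Col4a1, Col4a2, Col12a1 and Col18a1). Another 11 were tested at lower levels. The other 14 did not pass edgeR's low-count filter. In those, the highest count in any library was 10 and the highest group mean was 0.305 CPM. They were Col2a1, Col11a1 and Col24a1 of the fibrillar class, the FACIT genes Col9a1, Col9a2, Col19a1 and Col22a1, the transmembrane genes Col17a1, Col23a1 and Col25a1, and Col6a4, Col10a1, Col26a1 and Col28a1. Col9a1 and Col10a1, both known from cartilage, had a count of 0 in all 8 libraries.

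**Figure D1:**
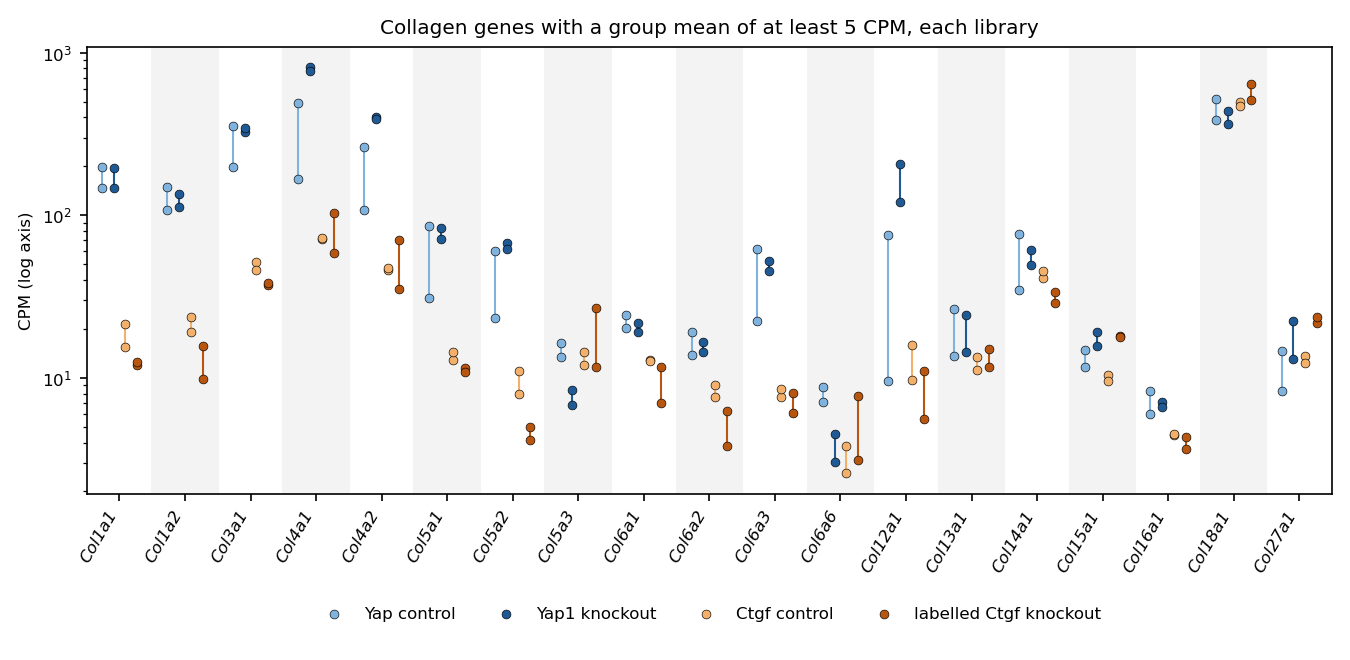
CPM (log axis) of the 19 collagen genes with a group mean of at least 5 CPM, a point for each library, with the replicates of a group joined by a line. The blue Yap-line points of Col1a1, Col3a1 and Col4a1 lie above the orange Ctgf-line points, while Col18a1 lies between 362 and 643 CPM throughout.

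The family took 0.271% of the counts in Yap control replicate 1 (95% Wilson interval 0.2693% to 0.273%) and 0.136% in replicate 2. It took 0.275% and 0.258% in the Yap1 knockouts, 0.0894% in each Ctgf control, and 0.0828% and 0.0984% in the livers labelled Ctgf knockout. All 4 libraries of the Yap line thus lay above all 4 of the Ctgf line. Without Col18a1 the share was 0.0888% to 0.232% in the Yap line and 0.0321% to 0.0398% in the Ctgf line. Intervals cover counting error only.

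Per kilobase of exon, a scale on which genes can be compared, Col18a1 had the highest mean of the family in 3 of the 4 groups. It stood at 64.7 ± 13.7 CPM per kb in the Yap controls, 69.0 ± 2.77 in the Ctgf controls and 82.3 ± 13.2 in the livers labelled Ctgf knockout, where it made 62.9% of all collagen transcript. In Yap control replicate 1, however, Col4a1 was higher, at 65.3 CPM per kb against 55 for Col18a1. Next in the Yap controls were Col4a1 (43.8 ± 30.3 CPM per kb), Col3a1 (28.3 ± 11.3), Col4a2 (28.0 ± 16.6) and Col1a1 (26.3 ± 5.42), whose SDs make their order uncertain. In the Ctgf controls Col4a1 followed at 9.61 ± 0.141, then Col4a2 at 7.05 ± 0.118, Col14a1 at 6.18 ± 0.483 and Col3a1 at 4.97 ± 0.429 CPM per kb. The Yap1 knockouts were led by Col4a1 at 106 ± 3.99 CPM per kb, with Col4a2 at 59.9 ± 1.14 and Col18a1 at 57.0 ± 7.62.

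The make-up of the family differed accordingly. Collagen IV chains made 47.7% and 47.0% of collagen transcript per kilobase in the Yap1 knockouts, 35.7% and 19.6% in the Yap controls and 11.7% to 17.0% in the Ctgf line. Fibrillar genes made 23.2% to 33.4% in the Yap line and 9.88% to 13.6% in the Ctgf line. The multiplexins made 15.8% to 38.1% in the Yap line, highest in Yap control replicate 2, and 58.7% to 65.3% in the Ctgf line. In CPM per kb the multiplexin sum ranged only from 54.6 to 94.5 over all libraries.

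**Figure D2:**
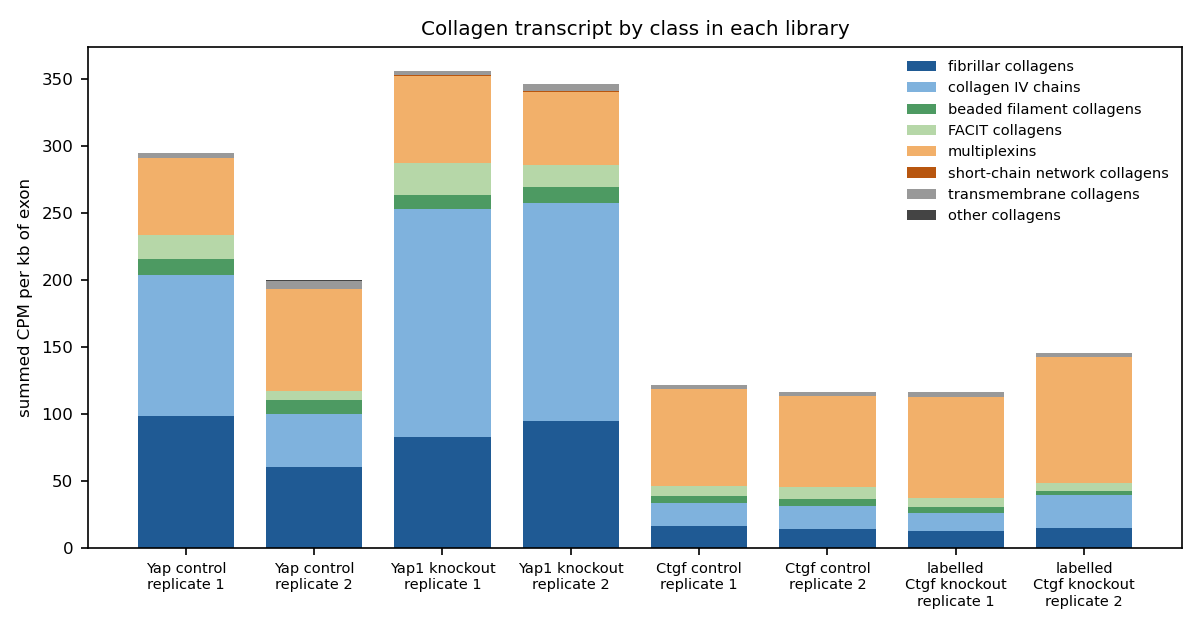
Summed CPM per kilobase of exon of the collagen genes in each library, stacked by class. The multiplexin part is of like height throughout, while the fibrillar and collagen IV parts are taller in the 4 Yap-line libraries, least so in Yap control replicate 2.

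The Yap controls differed more between replicates than the other groups did. Over the 19 genes above 5 CPM, the median fold between replicates was 1.77 for Yap controls, against 1.20 for Yap1 knockouts, 1.13 for Ctgf controls and 1.29 for the livers labelled Ctgf knockout. Over 10310 genes with a mean of at least 5 CPM the medians were 1.43, 1.12, 1.06 and 1.22. Replicate 2, the library with pancreatic transcripts, was the lower of the Yap controls in 14 of the 19 collagen genes. No share over all genes is given beside this count, so it gives no result about the family. Col12a1 differed most, 7.92-fold.

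Some chains kept a steadier ratio to their partner than others did. Collagen I is mostly built from a pair of alpha1 chains with a single alpha2 chain. Col1a1 stood at 2.48 to 2.72 times Col1a2 per kilobase in the Yap line and at 1.45 to 2.41 times in the Ctgf line. The exon length of Col1a2, 12426 bases, includes every annotated transcript, so the value of this ratio depends on the annotation. Col4a1 and Col4a2, which share a start region and form the same heterotrimer, stood in a ratio of 1.30 to 1.79 over all 8 libraries. Col6a1 and Col6a2 stood at 2.42 to 3.53.

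Wider ranges were found elsewhere. Col6a3, the longest of the main collagen VI chains, stood at 0.338 to 1.12 times Col6a1 in the Yap line and at 0.218 to 0.316 times in the Ctgf line. Col5a1 to Col5a2, which join in collagen V, ran from 1.19 to 2.99, and Col5a1 to Col5a3 from 0.327 to 9.86. Col4a1 to Col18a1, both of basement membranes, ran from 0.108 to 2.00. These values carry no test.

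**Figure D3:**
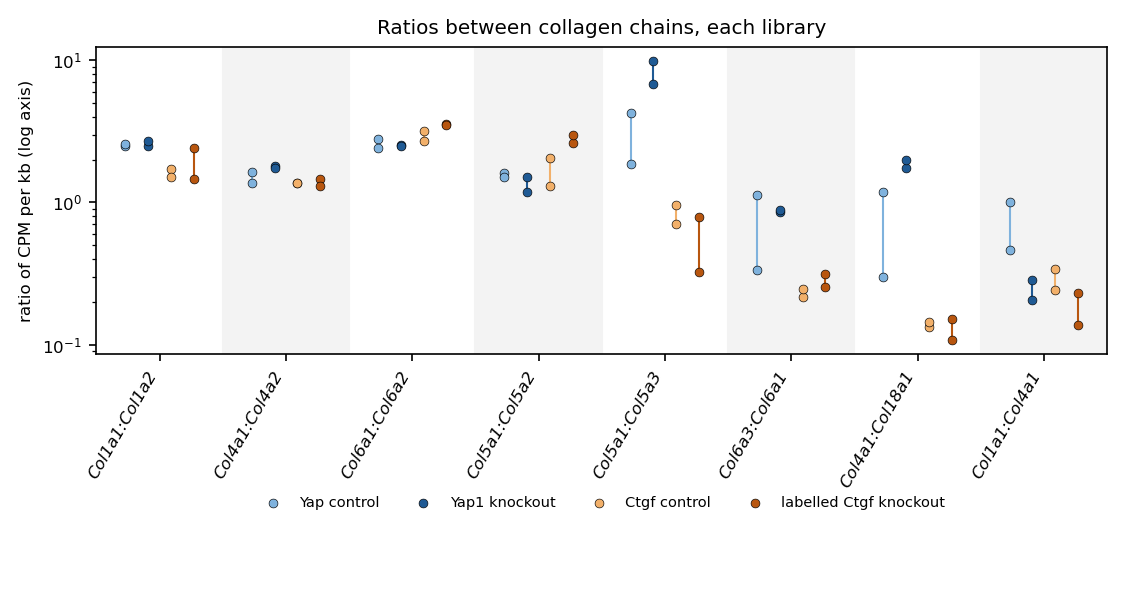
Ratio of CPM per kilobase between collagen chains (log axis), a point for each library, with the replicates of a group joined by a line. Col4a1 to Col4a2 stays between 1.30 and 1.79, while Col5a1 to Col5a3 and Col4a1 to Col18a1 spread over more than a decade.

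The first comparison asked how deletion of hepatocyte Yap1 bears on the liver's collagen transcripts. The main type I genes had near equal means in knockout and control livers, and the highest fold changes were those of collagen IV and Col12a1, none of which passed the test. Col4a1 measured 812 and 770 CPM in knockouts, against 487 and 167 CPM in controls. Both knockouts lay above both controls. Col4a2 did the same, at 402 and 391 CPM against 263 and 108 CPM. Col12a1, a FACIT collagen of tense connective tissue, stood at 207 and 120 CPM against 75.3 and 9.51 CPM, again without overlap.

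In the quasi-likelihood test of edgeR, with Benjamini-Hochberg adjustment over 13999 genes, 0 of 30 collagen genes passed the adjusted p threshold of 0.05, where 0.0286% of all genes did (0.0214% higher and 0.00714% lower). DESeq2, which called 3.67% of all genes, and limma-voom also called 0 collagens. At an unadjusted p under 0.05 there were 4 (Col4a1, Col4a2, Col12a1 and Col5a3), 13.3% of the 30, and 13.8% of all genes. The log2 fold changes were 1.27 (SE 0.478) for Col4a1, 1.10 (SE 0.445) for Col4a2 and 1.94 (SE 0.82) for Col12a1, with edgeR adjusted p of 0.318, 0.347 and 0.356. The median over the 30 genes was -0.03 with 13 above 0, against 0 over all genes tested.

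Of the 30, 8 had both knockouts above both controls (26.7%; 23.6% of all genes tested) and 4 had both below (13.3%; 20.8% of all genes). The higher ones were Col4a1, Col4a2, Col4a3, Col4a5, Col5a2, Col8a1, Col12a1 and Col15a1. The lower ones were Col4a4, Col5a3, Col6a5 and Col6a6. Shares so near the background give no result about the family.

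Among fibrillar genes, Col1a1 stood at 170 ± 33.3 CPM in the knockouts and 172 ± 35.6 CPM in the controls, and Col1a2 at 124 ± 16.1 and 128 ± 29.0 CPM. Col3a1 stood at 327 and 343 CPM against 356 and 199 CPM, so the groups overlapped. Col5a1 stood at 71.0 and 83.9 CPM against 85.7 and 31.1 CPM, and Col5a2, which joins it in collagen V, at 67.5 and 62.2 CPM against 60 and 23.3 CPM. Col5a3, another type V chain, ran the other way, at 8.36 and 6.82 CPM against 16.3 and 13.5 CPM (-0.97 as log2 fold change, SE 0.38, edgeR adjusted p = 0.335). Col27a1 overlapped between the groups, at 13 and 22.4 CPM against 14.7 and 8.31 CPM.

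The collagen VI genes overlapped as well, except Col6a6. Col6a1 stood at 20.4 ± 1.82 CPM in knockouts and 22.2 ± 2.71 CPM in controls, Col6a2 at 15.4 ± 1.45 and 16.4 ± 3.60 CPM, and Col6a3 at 48.8 ± 5.17 and 42.2 ± 28.1 CPM. Col6a6 stood at 4.54 and 3.05 CPM against 7.08 and 8.77 CPM (-1.06 as log2 fold change, SE 0.464, edgeR adjusted p = 0.366). Of the fibril-associated genes, Col14a1 had means of 55.3 and 55.6 CPM and Col16a1 of 6.86 and 7.13 CPM. Col18a1 stood at 438 and 362 CPM against 386 and 522 CPM, and Col15a1 at 15.6 and 19.0 CPM against 14.8 and 11.6 CPM. Col13a1, a transmembrane collagen, had means of 19.5 and 20.1 CPM.

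These values depended on which Yap control was used. With replicate 2 as the only control (without Yap control replicate 1), 8 of 32 collagen genes passed, 25% against 25.8% of all genes. Col3a1, Col4a1, Col4a2, Col5a1, Col5a2, Col6a3 and Col12a1 were then higher, Col12a1 by a log2 fold change of 4.07 and Col4a1 by 2.21, and Col7a1 was lower. Without Yap control replicate 2, which held the pancreatic transcripts, 0 of 31 passed, against 0.28% of all genes. Without it and without the library labelled Ctgf knockout replicate 2, Col4a1 (log2 fold change 0.70), Col4a2 (0.59) and Col5a3 (-1.10) passed, 3 of 31 or 9.68% against 6.58% of all genes. The part of the pancreatic tissue in these differences was not tested.

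Genes that process collagen gave 0 calls among 26 tested in this comparison, with a median log2 fold change of 0.05. Those with the smallest p were Pcolce, which enhances the trimming of procollagen (12.4 and 12.1 against 16.8 and 19.2 CPM), Sec23a, a coat protein of the vesicles that carry procollagen (130 and 159 against 107 and 68.1 CPM), and Plod2, a lysyl hydroxylase of collagen (18 and 14.1 against 9.62 and 2.63 CPM). Of 11 collagen receptor and uptake genes 0 passed. The smallest p there were those of the platelet receptor Gp6, the integrin chain Itga2 and the uptake receptor Mrc2. Itga2 stood at 7.18 and 6.58 against 3.84 and 3.99 CPM, and Mrc2 at 5.56 and 5.16 against 8.55 and 7.45 CPM. Myofibroblast markers summed to 577 and 510 CPM in the knockouts and 359 and 234 CPM in the controls, and neutrophil markers to 1024 and 508 against 141 and 258 CPM. Their part in the collagen values was not tested.

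The next comparison asked how loss of Ctgf bears on collagen transcripts in the same injury. Most fibrillar genes stood lower in the livers labelled Ctgf knockout than in the Ctgf controls, by amounts that did not pass the test, and Col15a1 and Col27a1 stood higher. Col1a1 measured 12.0 and 12.6 CPM in them, and 21.4 and 15.4 CPM in the controls. Col1a2 stood at 15.6 and 9.86 against 23.7 and 19.2 CPM, and Col5a2 at 4.97 and 4.13 against 11 and 7.99 CPM. In all 3 genes both labelled knockouts lay below both controls.

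By edgeR's quasi-likelihood test 0 of 30 collagen genes passed, where 0% of all genes did, and DESeq2 and limma-voom called 0 as well. At an unadjusted p under 0.05 there were 6 (Col15a1, Col4a6, Col1a2, Col5a2, Col6a2 and Col27a1), 20% of the 30 and 1.98% of all genes. The log2 fold change was 0.85 (SE 0.224) for Col15a1, -0.75 (SE 0.284) for Col1a2, -1.06 (SE 0.42) for Col5a2 and 0.81 (SE 0.344) for Col27a1, each with an edgeR adjusted p of 1. The median over the 30 genes was -0.32 with 11 above 0, against 0.01 over all genes tested. All these values, the 20% among them, include the library in which Ctgf goes against its label. The 20% therefore gives no result about the loss of Ctgf. Without that library the median over 32 genes was -0.15, against 0 over all genes tested. Both labelled knockouts lay below both controls in 12 genes (40%; 16.8% of all genes tested) and above them in 3 (10%; 15.5% of all genes).

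Col15a1, a basement membrane collagen, measured 18.1 and 17.9 CPM in the labelled knockouts against 10.4 and 9.55 CPM, with little spread in either group. Its relative Col18a1 stood at 512 and 643 against 498 and 470 CPM. Col27a1, a fibrillar collagen known from cartilage, stood at 21.6 and 23.8 against 13.6 and 12.4 CPM. These 3 were the genes with both labelled knockouts above both controls.

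The lower genes included Col3a1 (37.2 and 38.1 against 51.8 and 45.8 CPM), Col5a1 (11.5 and 10.9 against 12.8 and 14.5 CPM) and Col14a1 (33.8 and 28.8 against 40.9 and 45.7 CPM). Col6a1 stood at 11.7 and 7.03 against 12.8 and 12.7 CPM and Col6a2 at 6.28 and 3.82 against 9.02 and 7.59 CPM. Col4a6, a minor basement membrane chain, had counts of 2 and 2 against 19 and 16, too few for a fold change to be given. Col1a1, Col4a4, Col4a5 and Col16a1 complete the 12 together with Col1a2 and Col5a2.

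The labelled knockouts themselves parted in collagen IV and V. Col4a1 stood at 58.8 CPM in replicate 1 and 103 CPM in replicate 2, on either side of the controls at 71.0 and 72.5 CPM. Col4a2 stood at 35.4 and 70.4 CPM around 46.1 and 47.2 CPM. Col5a3 stood at 11.7 and 26.8 CPM beside 14.5 and 12.0 CPM. Replicate 2, the higher in each, is the library in which Ctgf goes against the label.

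Without that library 0 of 32 collagen genes passed and the median was -0.15, with log2 fold changes of -0.29 for Col4a1 and -0.40 for Col4a2. Without Ctgf control replicate 2 the median over 32 genes was 0.01. Of the 26 maturation and secretion genes 0 passed, the smallest p being those of the procollagen protease Adamts14 (12.3 and 18.5 against 9.08 and 8.19 CPM), the enhancer Pcolce2 and the chaperone Fkbp10. Of 11 receptor and uptake genes 0 passed, with the smallest p for Itga2, Mrc2 and Itga11. Mesothelium markers summed to 8.48 and 6.33 CPM in the labelled knockouts and 22.6 and 16.2 CPM in the controls, and myofibroblast markers to 15 and 37.6 against 34.0 and 30.1 CPM. Their part in the collagen values was not tested.

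The effects of the knockouts were also set against each other in the same fit. In this test of the difference 0 of 30 collagen genes passed, against 0% of all genes, and DESeq2 (1.01% of all genes) and limma-voom called 0. At an unadjusted p under 0.05 there were 3 (10%; 8.87% of all genes), namely Col5a2, with a difference of 1.70 on the log2 scale (SE 0.581, edgeR adjusted p = 0.519), Col5a3 with -1.51 (SE 0.533, adjusted p = 0.53) and Col6a6 with -1.82 (SE 0.656, adjusted p = 0.531). The next smallest p were those of Col12a1 (2.57, SE 1.15) and Col4a5 (1.22, SE 0.592). Without Yap control replicate 1, 7 of 32 passed, 21.9% against 14.5% of all genes. These were Col3a1, Col4a1, Col5a1, Col5a2, Col6a3, Col12a1 and Col14a1, all with a higher Yap1 effect.

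The control groups allow a further comparison, of Ctgf control with Yap control livers. The groups differ in the floxed allele and in the GFP virus, and these cannot be told apart, nor from any difference in how the lines were kept or processed. Here 5 of the 8 fibrillar genes tested (Col1a1, Col1a2, Col3a1, Col5a1 and Col5a2) and Col6a3 fell in the Ctgf controls, and the other collagen genes did not pass. Col1a1 measured 21.4 and 15.4 CPM in Ctgf controls, against 198 and 147 CPM in Yap controls. Col3a1 stood at 51.8 and 45.8 against 356 and 199 CPM. Col18a1 stood at 498 and 470 against 386 and 522 CPM, so its groups overlapped.

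By edgeR's quasi-likelihood test 6 of 30 collagen genes passed, all lower in the Ctgf controls, 20% against 2.38% of all genes in either direction, 1.27% in the lower and 1.11% in the higher one. Over all genes 155 were higher and 178 lower, and with upper quartile scaling, which moved the median of all genes from -0.04 to -0.18, 114 and 244. The median log2 fold change of the 30 was -0.76, with 7 above 0 (-0.90 and 6 with upper quartile scaling). Both Ctgf controls lay below both Yap controls in 16 of the 30 (53.3%; 26.1% of all genes tested) and above them in Col4a5 and Col6a5 (6.67%; 27% of all genes).

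Col1a1 (chromosome 11, 94936224 to 94953042, plus strand) had a log2 fold change of -3.23 (SE 0.276, edgeR adjusted p = 0.0104), so Ctgf controls held 9.39-fold less. Col1a2 (chromosome 6, 4504814 to 4541544, plus strand) stood at 23.7 and 19.2 against 149 and 108 CPM, or -2.58 as log2 fold change (SE 0.295, adjusted p = 0.021). That of Col3a1 was -2.51 (SE 0.296, adjusted p = 0.021). Col5a1 (chromosome 2, 27886425 to 28039514, plus strand) stood at 12.8 and 14.5 against 85.7 and 31.1 CPM and Col5a2 at 11 and 7.99 against 60 and 23.3 CPM. They seed and limit the fibrils of type I, and their log2 fold changes were -2.10 (SE 0.423) and -2.13 (SE 0.421), with adjusted p of 0.0494 and 0.0478. Col6a3 (chromosome 1, 90765923 to 90843971, minus strand) stood at 7.59 and 8.56 against 62 and 22.3 CPM (-2.39, SE 0.447, adjusted p = 0.044).

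Other fibrillar chains did not pass. Col5a3 stood at 14.5 and 12.0 against 16.3 and 13.5 CPM and Col27a1 at 13.6 and 12.4 against 14.7 and 8.31 CPM, with log2 fold changes of -0.16 (SE 0.374) and 0.17 (SE 0.344). That of Col27a1 was -0.17 without Yap control replicate 2 or both doubted libraries. Of the 8 fibrillar genes tested 5 passed and 7 were below 0.

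Collagen IV came close without passing. Col4a1 measured 71.0 and 72.5 CPM in Ctgf controls against 487 and 167 CPM (-2.19 as log2 fold change, SE 0.492, edgeR adjusted p = 0.0616) and Col4a2 at 46.1 and 47.2 against 263 and 108 CPM (-1.99, SE 0.457, adjusted p = 0.064). The rarer chains Col4a3, Col4a4, Col4a5 and Col4a6 had log2 fold changes of 0.16 to 0.29. Col6a1 stood at 12.8 and 12.7 against 20.3 and 24.2 CPM and Col6a2 at 9.02 and 7.59 against 13.9 and 19.0 CPM, without overlap, and neither passed (adjusted p = 0.143 and 0.119). Col8a1, a short-chain network collagen of vessel walls, stood at 0.414 and 0.569 against 3.12 and 1.81 CPM (adjusted p = 0.0552). Col7a1, which anchors epithelia, stood at 0.478 and 0.626 against 0.996 and 5.19 CPM, so that its value in the Yap controls came mostly from the library with pancreatic transcripts.

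Col12a1 and Col14a1 overlapped between the control groups. Col12a1 measured 9.72 and 16 CPM in Ctgf controls against 75.3 and 9.51 CPM, and Col14a1 at 40.9 and 45.7 against 76.6 and 34.6 CPM. In both genes Yap control replicate 2 was the lowest of these 4 libraries. Col15a1 stood at 10.4 and 9.55 against 14.8 and 11.6 CPM, and Col13a1 at 11.1 and 13.4 against 13.7 and 26.5 CPM, without overlap and without passing (adjusted p = 0.318 and 0.301).

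Each call rested on the spread pooled over all 4 groups. In a fit of the control libraries alone 0 collagen genes passed, as did 0 of all 13637 genes, and the log2 fold change of Col1a1 was -3.24 with an adjusted p of 0.0835. Without Ctgf control replicate 1 or 2 the number was 0, as it was over all genes, with log2 fold changes of Col1a1 of -3.50 and -3.03. Without Yap1 knockout replicate 1 or 2 Col1a1 alone of the collagens passed, and 6 of all genes did in each fit. With either library labelled Ctgf knockout left out, Col1a1, Col1a2 and Col3a1 passed, as they did with limma-voom. Over all genes 455 passed without replicate 1 and 466 without replicate 2 of that group. Col5a1 did not pass with a robust estimate of the spread (edgeR adjusted p = 0.0503). More passed without Yap control replicate 1 (11 of 32; 25.6% of all genes) and without replicate 2 (10 of 31; 7.07%), and 14 of 31 did without both doubted libraries (28.4% of all genes). The 6 genes were among those called in each of these last 3 fits.

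**Figure D4:**
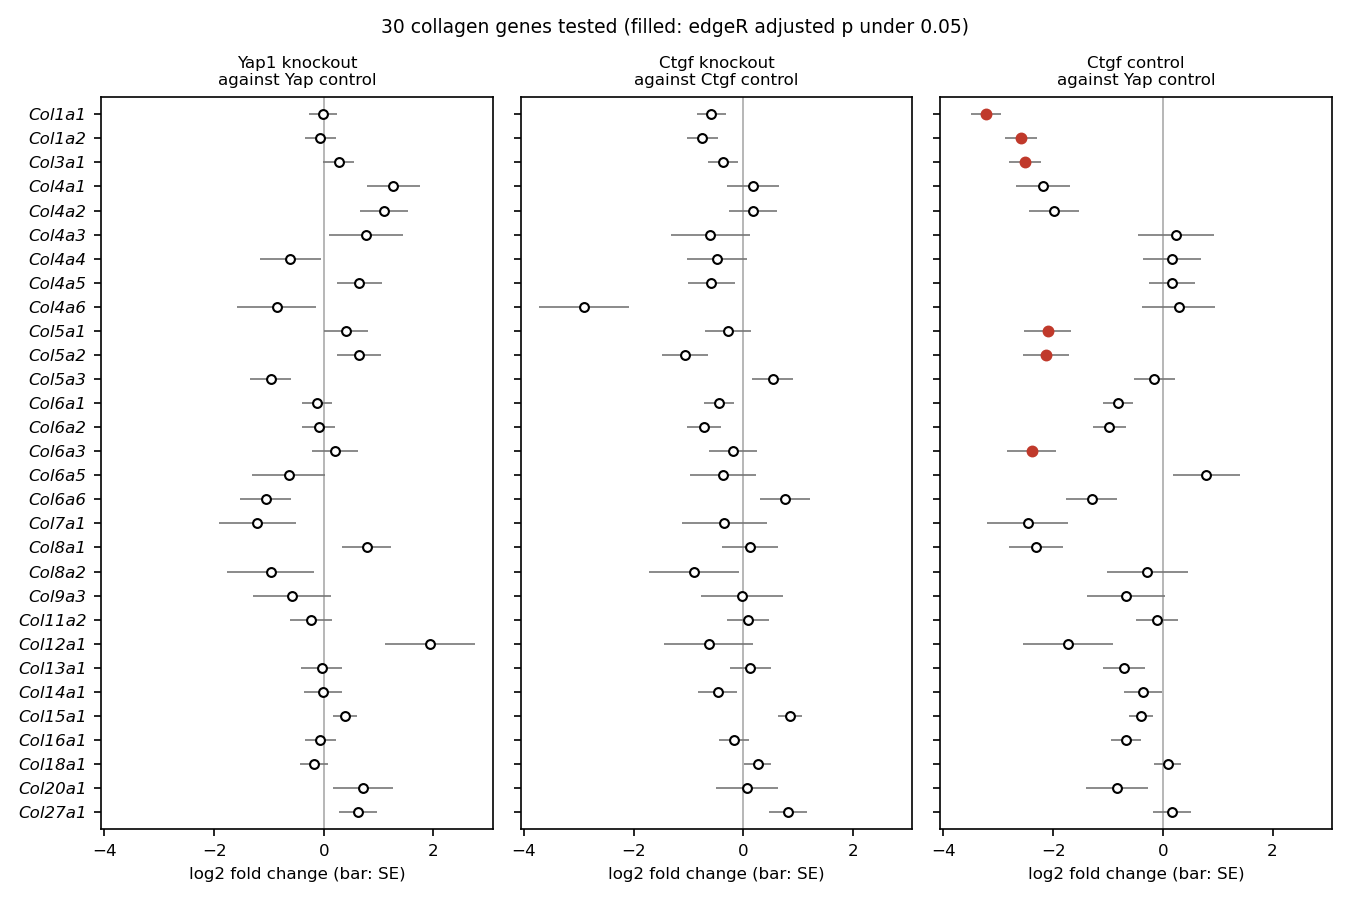
Log2 fold change with its SE of the 30 tested collagen genes in 3 comparisons, filled where the edgeR adjusted p was under 0.05. The filled points are Col1a1, Col1a2, Col3a1, Col5a1, Col5a2 and Col6a3 in the right panel; the Yap controls enter the left and right panels and the Ctgf controls the middle and right ones, so the panels share samples.

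The same order held with the knockouts added. All 4 libraries of the Yap line lay above all 4 of the Ctgf line in 13 of 30 collagen genes (11.5% of all genes tested), and in 0 did all 4 lie below (11.2% of all genes). The 13 were Col1a1, Col1a2, Col3a1, Col4a1, Col4a2, Col5a1, Col5a2, Col6a1, Col6a2, Col6a3, Col7a1, Col8a1 and Col16a1. In the mean of both groups of each line, a contrast chosen after seeing the data, these 13 and Col12a1 passed (17.6% of all genes did). Col12a1 then had a log2 fold change of -3.01 (edgeR adjusted p = 0.0162) and Col4a1 of -2.74 (adjusted p = 0.00377).

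Among genes that fold, trim and bind collagen, those past the test were also lower. Of 26 maturation and secretion genes tested, 5 fell and 0 rose in the Ctgf controls, with a median of -0.25 against -0.04 over all genes. Over all genes 1.27% passed as lower and 1.11% as higher. The 5 included the chaperone Fkbp10 (2.10 and 1.93 against 14.8 and 12.3 CPM), the prolyl hydroxylase family member P3h3 and the procollagen protease Adamts2. The others were Pcolce, which enhances the trimming of procollagen, and the collagen-binding protein Sparc (92.3 and 92.1 against 338 and 224 CPM). The list's summed level was not lower, at 6313 and 5834 CPM in the Ctgf controls against 3588 and 5201 CPM. The largest part of that sum was P4hb, at 4177 and 3788 against 1553 and 3207 CPM. By gene, 17 of the 26 had a log2 fold change below 0 and 9 above 0. Serpinh1, the collagen chaperone HSP47, stood at 18 and 18.2 against 149 and 43.6 CPM and did not pass (edgeR adjusted p = 0.0591). Of 11 receptor and uptake genes 1 fell, Itga2, a chain of a collagen-binding integrin, at 0.383 and 0.284 against 3.84 and 3.99 CPM (log2 fold change -3.54, SE 0.354, adjusted p = 0.0191).

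Among markers of collagen-making cells, those of myofibroblasts were lower in the Ctgf controls together with the collagens. The 9 myofibroblast markers summed to 234 to 577 CPM in the Yap line and 15 to 37.6 CPM in the Ctgf line. Between the controls 4 of 9 (Acta2, Tagln, Myl9 and Lox) passed. Of all genes tested, 1.27% passed as lower and 1.11% as higher. Acta2, which encodes smooth muscle actin of myofibroblasts, measured 2.87 and 3.53 CPM in Ctgf controls against 75 and 72.0 CPM, 22.9-fold less (edgeR adjusted p = 0.00205). The 15 stellate cell markers summed to 611 to 691 CPM in the Ctgf line and 775 to 935 CPM in the Yap line, and 1 of 14 tested passed, Des. Of those 14, 9 had a log2 fold change below 0 and 5 above 0, with a median of -0.17. Hand2 and Pdgfrb had the next smallest p. Hand2 stood at 6.47 and 6.74 against 12.9 and 15.3 CPM, and Pdgfrb at 16.4 and 15.8 against 63.2 and 28.7 CPM. Lrat, which stores vitamin A in stellate cells, stood at 22.1 and 32.4 against 43.9 and 17.3 CPM. The proteoglycan gene Dcn stood at 259 and 253 against 288 and 366 CPM. Portal fibroblast markers summed to 115 to 148 CPM in the Ctgf controls and 122 to 178 CPM in the Yap controls, and 1 of 11 passed (Fbln2). By gene, 10 of these 11 had a log2 fold change below 0, with a median of -0.58. Liver endothelium markers summed to 426 to 535 CPM in the Ctgf line and 632 to 1031 CPM in the Yap line, with 0 of 13 past the edgeR test. Between the controls 11 of the 13 had a log2 fold change below 0 and 2 above 0, with a median of -0.64. Cholangiocyte markers summed to 399 and 336 CPM in the Ctgf controls against 403 and 1508 CPM. Of the 8 tested, 6 had a log2 fold change below 0, with a median of -2.38. All 6 stood higher in replicate 2 of the Yap controls than in replicate 1. The median thus leans on replicate 2, in which pancreas genes were also read. Krt19 stood at 1.34 and 1.31 against 1.44 and 32.6 CPM, and Epcam at 1.43 and 1.28 against 1.88 and 17.5 CPM. Spp1 differed from replicate 1 too, at 228 and 162 against 325 and 1357 CPM. The 1 of the 8 that passed, Sox9, was higher in the Ctgf controls, at 141 and 145 against 45.8 and 56.6 CPM. In bulk tissue fewer cells of a type and less RNA per cell cannot be told apart, and the part of these cells in the collagen difference was not tested.

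**Figure D5:**
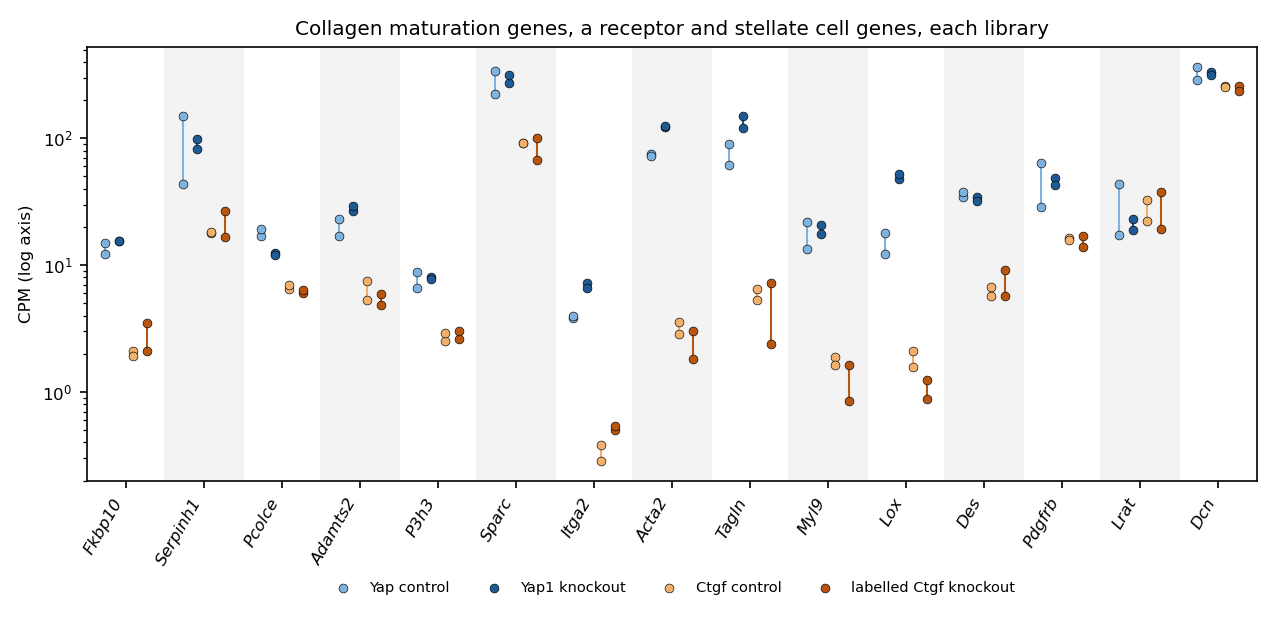
CPM (log axis) of collagen maturation genes (Fkbp10 to Sparc), the receptor chain Itga2, myofibroblast genes (Acta2 to Lox) and stellate cell genes (Des to Dcn), a point for each library. The Yap-line points of Acta2 lie at 72.0 to 125 CPM and the Ctgf-line points at 1.81 to 3.53 CPM, while Lrat overlaps between the lines.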

How the data were processed

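The authors deposited whole-number read counts per gene symbol, 1 column per library, and 0 columns were left out. The tools named, per the submitters' processing notes, are HTSeq 0.6.1, STAR 2.6.0a and bcl2fastq 2.20.0.422, and the builds mm10 and GRCm38. The annotation and strand setting are not given in the sources used, so the effect of the Col4a1 and Col4a2 overlap on their counts is unknown. RNA was extracted from frozen liver, per the labels' protocols, which name a TruSeq and a KAPA kit without saying which library used which.

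Counts were fitted for all genes with edgeR 4.0.16 in R 4.3.3 (quasi-likelihood F test, TMM, edgeR's low-count filter, 1 fit of all 4 groups, 4 residual degrees of freedom, biological coefficient of variation 27.2%). P-values were adjusted over all 13999 genes by the Benjamini-Hochberg method. The script was tested on simulated data. SE comes from the fold change and F. DESeq2 1.42.0 and limma 3.58.1 were alternatives. Positions and exon lengths (union over transcripts) came from GENCODE M21 by symbol, and 21712 symbols matched, all 44 collagens included. Members and lists were chosen with earlier results of these data known. Named members were those with a group mean of 5 CPM, those past the threshold and the 5 with the smallest p per comparison. For the other lists they were genes past the threshold or the 3 smallest p, and further genes were chosen after their values were seen.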

Additional observations from a re-analysis of the deposited data

How the results depend on the processing

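The number of collagen genes past the threshold was 0 for the Ctgf knockout under every alternative run. For the Yap1 knockout it was 3 without both doubted libraries and 0 to 8 with each library left out, and for the difference between the effects 0 to 7. For Ctgf against Yap controls it was 6, with 11 by DESeq2, 3 by limma-voom, 0 in a fit of the control libraries alone, 14 without both doubted libraries, 14 in the mean of both groups of each line (chosen after seeing the data), and 0 to 11 with each library left out. With the replicate number as a block it was 4 there, Col5a1 (edgeR adjusted p = 0.0668) and Col6a3 (adjusted p = 0.0523) no longer passing, and 0 for the knockouts. Same-numbered libraries deviated with a correlation of 0.186 in the Yap and 0.113 in the Ctgf line, and no label says that a number marks a shared litter, batch or day. The titles name each Yap control as the control for a numbered knockout. For replicate 2 that number is in the column name of Yap1 knockout replicate 2, and for replicate 1 it is in the control's own column name. Over all genes the calls for the Yap1 knockout were 4, with 514 by DESeq2, 37 without a low-count filter and 19 with the block. Those between the controls were 333, with 1527 by DESeq2, 219 with the block, 2468 in the mean of both groups and 0 in the control libraries alone. DESeq2 called 4 genes for the Ctgf knockout and 142 for the difference, where edgeR called 0. Of 1507 values of single genes under alternatives, 62 changed sign, none of them past the threshold in either fit, and 40 calls were lost and 39 gained.

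The collagen share of counts per kilobase of exon was 0.0781% in Yap controls, 0.102% in Yap1 knockouts, 0.0391% in Ctgf controls and 0.0383% in livers labelled Ctgf knockout. Not scaled to length, the share without Col18a1, the most abundant member over all libraries, was 0.157% in Yap controls, 0.228% in Yap1 knockouts, 0.0394% in Ctgf controls and 0.0351% in the labelled knockouts. Without the low-count filter 42 collagen genes were tested, all but the 2 with a count of 0 everywhere. Of these, 7 passed between the controls, the 6 and Col8a1, where 389 of all 17621 genes did.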
